A study of Mus musculus with 32 samples.

Results

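Nerve-injured midbrain was compared between mice lacking Cckbr, the cholecystokinin B receptor (KO mice), and control mice. The 8 arrays were taken by title and description, which name the genotype, the operation and the region: 4 arrays of KO midbrain and 4 of control midbrain, of 32 arrays in the series. Both groups had chronic constriction injury (CCI), a neuropathic pain model in which loose ligatures are tied around the sciatic nerve. The design text describes 4 mice in each group, with both midbrain and medulla taken from every animal. Sham-operated KO and control mice, 4 of each, gave midbrain arrays that share no animal with the CCI arrays. Medulla arrays of the CCI mice come from the animals whose midbrain is described here. Strain, sex, age, the time after the operation and the way the allele was made are not given in the sources used here. The RNA is from the whole region, so fewer cells of a type and less RNA per cell cannot be told apart.

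The cholecystokinin B receptor is a Gq-coupled receptor for the neuropeptide cholecystokinin, and it is the form that predominates in the brain. Cholecystokinin acting on it is known to oppose opioid analgesia, in part within the periaqueductal grey of the midbrain. Neurons that make both cholecystokinin and dopamine lie in the ventral midbrain. The constricted nerve lies outside this tissue, and both groups compared had the injury.

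All 22626 probe sets other than the manufacturer's controls were tested, of which 20380 carried 1 gene symbol, for 12393 genes in all. The deposited values were intensities on a linear scale after background subtraction, so that a value near 0 or below it means no signal above background. The tissue label held: Slc6a3, the dopamine transporter, had a median of 560 intensity units over the 8 CCI midbrain arrays against 10.4 over the CCI medulla arrays. Th, the first enzyme of dopamine synthesis, had a median of 331 against 90.0. Hoxa5, a patterning gene of the hindbrain, had a median of 25.6 in midbrain against 753 in medulla. Not every marker checked separated the regions as well. Hoxb4, another Hox gene, had a median of 62.7 in midbrain against 124.6 in medulla. Pitx3, a transcription factor of dopamine neurons, went the other way, at 31.95 against 37.2. Array medians lay between 98.3 and 99.5 units in KO CCI midbrain and between 94.6 and 98.0 in control CCI midbrain, so the KO arrays were slightly brighter before normalization and the groups did not overlap. The Actb 3' to 5' log2 ratio, a sign of RNA integrity, ran from 0.36 to 0.58 on the KO arrays and from 0.57 to 0.73 on the control arrays. On the first principal component of the 16 midbrain arrays, which held 17.8% of the variance, KO CCI arrays lay from 3.16 to 17.7 and control CCI arrays from -16.2 to -0.05. KO sham arrays 2 and 4 stood apart from the other midbrain arrays on it, at -36 and -26.4, against 20.1 and 21.8 for KO sham arrays 1 and 3. KO sham array 2 also had the highest Actb and Gapdh 3' to 5' log2 ratios, 1.602 and 0.35, against at most 0.73 and -0.07 on the other midbrain arrays. Both arrays share in the estimate of the spread, and without them 5 probe sets passed in CCI midbrain. The part of scale and RNA integrity in the differences below was not tested. Pearson correlations across probe sets ran from 0.982 to 0.989 between CCI midbrain arrays of a group and from 0.980 to 0.987 between genotypes.

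Cckbr itself had the clearest difference, and Myo7a was the 1 other gene that passed. Both were lower in KO midbrain, and no gene was higher past the threshold. In limma's moderated test with Benjamini-Hochberg adjustment over all probe sets, 2 of 22626 had an adjusted p under 0.05, which is 0.00884% of those tested. At an unadjusted p under 0.05 stood 1121 probe sets (4.95%), of which 549 (2.43%) were higher and 572 (2.53%) lower in KO mice. The genotypes did not overlap, after normalization, on 1158 probe sets (5.12%), 464 (2.05%) with KO higher and 694 (3.07%) with KO lower. Both shares are those of all probe sets, and the counts of groups of genes given below are to be read against them. The log2 differences are of normalized log2(intensity + 16), a scale that understates the change of dim genes.

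**Figure D1:**
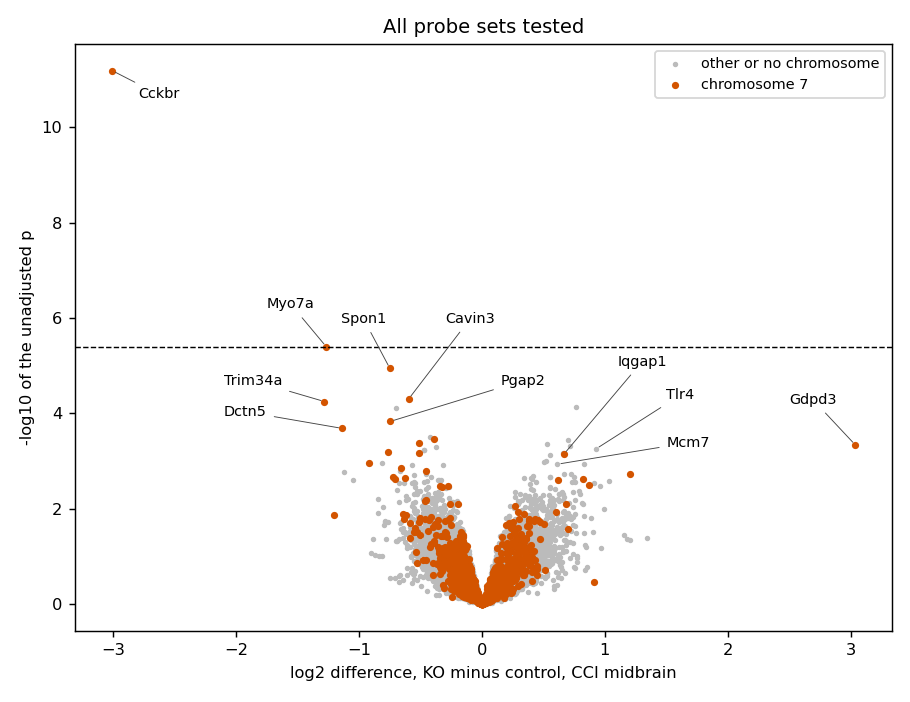
Log2 difference between KO and control CCI midbrain (horizontal) against -log10 of limma's unadjusted p (vertical), 1 point per probe set, with chromosome 7 in orange. The dashed line is the p of the last probe set past the threshold: Cckbr and Myo7a lie on or above it, at log2 differences of -3.01 and -1.27, while Gdpd3, at 3.04, has a larger p.

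Cckbr was read by 2 probe sets. On the brighter, KO arrays 1 to 4 read 8.80, 7.001, 6.66 and 5.91 intensity units and control arrays 1 to 4 read 163.6, 158.1, 172.4 and 176.5. The groups lay far apart, with the KO arrays at background and the control arrays within a narrow band. The means were 7.09 ± 1.23 and 168 ± 8.35 (SD, n = 4), a log2 difference of -3.01 (SE 0.15, adjusted p = 1.483e-07 in limma). No fold is given, because the KO level was at background. On the dimmer probe set the KO arrays read 5.74, 12.95, -5.12 and 14.2 and the control arrays 13.3, 24.7, 15.7 and 23.9, with a log2 difference of -0.64 (SE 0.23, adjusted p = 0.966), short of the threshold. Here even the control level was low, and the deposited values of the groups overlapped, though the normalized values did not. The sources used here do not say whether either probe set reads the deleted part. The brighter probe set passed in each of 16 fits that left out a midbrain array in turn. The call was lost with a pseudocount of 1 (-4.50, adjusted p = 0.120), and the log2 difference was -1.704 with a pseudocount of 64. The call was also lost in the fit within the lower array code (-2.915), which took in sham arrays and held 1 control sham array.

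The promoter of Cckbr is shown because Cckbr is the gene that defines the genotype. It is the reference sequence at chr7:105425481-105425780, plus strand (RefSeq, GRCm38.p6), from 250 bases before to 50 bases after the start of the gene, and not the sequence of these mice. Capitals mark its 1 match to the E box CACGTG, a palindrome bound by basic helix-loop-helix factors, which 7.15% of 32851 promoters of the same length hold. It also holds 1 match to the CCAAT box on the other strand, as do 37.4% of promoters on either strand.
Cckbr: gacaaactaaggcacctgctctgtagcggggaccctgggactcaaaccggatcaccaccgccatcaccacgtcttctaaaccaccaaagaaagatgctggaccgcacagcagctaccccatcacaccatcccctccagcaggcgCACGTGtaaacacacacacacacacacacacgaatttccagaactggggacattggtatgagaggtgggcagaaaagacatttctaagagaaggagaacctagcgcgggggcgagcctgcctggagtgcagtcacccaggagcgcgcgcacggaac

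Myo7a encodes myosin VIIa, an unconventional myosin known for its role in the stereocilia of inner ear hair cells. KO arrays 1 to 4 read 24.3, 17.2, 17.0 and 26.5 units and control arrays read 43.1, 78.4, 83.7 and 80.6. Control array 1 lay well below the other 3 control arrays but still above every KO array. The means were 21.3 ± 4.86 in KO and 71.5 ± 19.04 in control midbrain (SD, n = 4). Myo7a fell 2.41-fold on the log2(intensity + 16) scale (log2 difference -1.27, SE 0.18, adjusted p = 0.0455 in limma). Its distance from the threshold was small. The call was lost in 13 of 16 fits that left out a midbrain array in turn, at adjusted p up to 0.295, and held without control CCI 1 (0.00415), KO sham 2 (0.0153) or KO sham 3 (0.0261). It was also lost in a fit to the 8 CCI midbrain arrays alone (0.207).

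Array descriptions carry a code that is lower for arrays 1 and 2 and higher for arrays 3 and 4 of both CCI groups, so it is balanced between the genotypes. Cckbr differed by -2.92 within the lower and by -3.11 within the higher code, 2 arrays against 2 in each. Myo7a differed by -1.08 and -1.46. With the code as a block in the fit, Myo7a did not pass (adjusted p = 0.200) and Cckbr did (5.479e-06). Among the sham arrays in that fit, control sham midbrain array 1 carries a different, still lower code.

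The promoter of Myo7a, the second gene called, lies on the same chromosome at chr7:98119444-98119743, minus strand (RefSeq, GRCm38.p6). Capitals mark its 2 matches to the GC box GGGCGG, 1 on each strand, a motif bound by Sp family factors that 35.7% of promoters of this length hold. The letters of the CCAAT box (CCAAT), the TATA box (TATAAA), the E box and the cAMP response element (TGACGTCA), searched on both strands, are not in this window.
Myo7a: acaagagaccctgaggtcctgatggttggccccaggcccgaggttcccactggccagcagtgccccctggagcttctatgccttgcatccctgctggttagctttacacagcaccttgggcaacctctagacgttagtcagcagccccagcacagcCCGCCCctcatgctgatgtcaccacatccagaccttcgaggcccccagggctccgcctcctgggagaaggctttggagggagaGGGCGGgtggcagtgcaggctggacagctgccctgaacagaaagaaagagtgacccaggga

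Of the 10 probe sets of smallest p, Cckbr and Myo7a among them, 9 were lower in KO mice and 7 on chromosome 7. Those of the 10 on other chromosomes are not named here. Genes were taken by p only from probe sets with a mean of at least 50 units. Dimmer chromosome 7 genes such as Trim34a entered through other naming rules. The genes described below are given as values, since none passed. Some of these genes were picked out by earlier work on genotype averaged over both operations, which included these arrays, so their direction here is not independent evidence: of 17 such genes measured, 12 had a probe set without overlap between the groups.

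Spon1, a secreted matrix protein of axon guidance, came closest. KO arrays read 78.9, 67.8, 68.4 and 82.1 units and control arrays 136.6, 113.3, 143.1 and 138.2. The highest KO array lay below the lowest control array by a clear margin. The log2 difference was -0.75 (SE 0.12, adjusted p = 0.0864), and the brighter probe set of Spon1 read 568 ± 55.0 in KO against 648 ± 21.4 in control midbrain (-0.18), so the 2 probe sets differed in size. Spon1 passed in 1 of 16 fits that left out a midbrain array in turn, that without KO sham 3 (adjusted p = 0.0261). In the other such fits the adjusted p was as high as 0.406.

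Cavin3, the measured gene next to Cckbr and a coat protein of caveolae, had tight groups. KO arrays read 119.5, 124.5, 117.8 and 121.9 and control arrays 187.9, 180.5, 208.2 and 182.7. No KO array came near a control array. The log2 difference was -0.60 (SE 0.11, adjusted p = 0.254), and Cavin3 passed in the fit to the 8 CCI midbrain arrays alone (0.0443). It passed in 0 of 16 fits that left out a midbrain array in turn, at adjusted p up to 0.808.

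Pgap2, which remodels GPI anchors in the Golgi, was read by 3 probe sets. On the 1 of smallest p KO arrays read 69.0, 62.9, 58.8 and 58.8 and control arrays 98.4, 104.5, 139.4 and 107.7 (-0.75, SE 0.15, adjusted p = 0.418). The other probe sets of Pgap2 read -0.51 and -0.26, in the same direction.

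Dctn5, a subunit of the pointed end of dynactin, was bright and uneven in KO mice. KO arrays read 427, 182, 410.4 and 241 units and control arrays 693, 700.1, 641 and 685. The control arrays lay close together while the KO arrays ranged over more than a factor of 2, all below the controls. The log2 difference was -1.14 (SE 0.23, adjusted p = 0.520), a 2.20-fold lower level.

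Coq7, a hydroxylase of ubiquinone synthesis, read 498, 474, 353 and 370.4 on KO arrays and 612, 635, 539 and 574 on control arrays, without overlap (-0.46, SE 0.12, adjusted p = 0.920). Hdgfl3, a protein of the hepatoma-derived growth factor family, read 506, 546, 417 and 329 on KO arrays and 514, 939.8, 685 and 773 on control arrays (-0.66, SE 0.17, adjusted p = 0.920). There the groups overlapped, since control array 1 lay below KO array 2. The other probe sets of Hdgfl3 read 0.12 and 0.04.

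**Figure D2:**
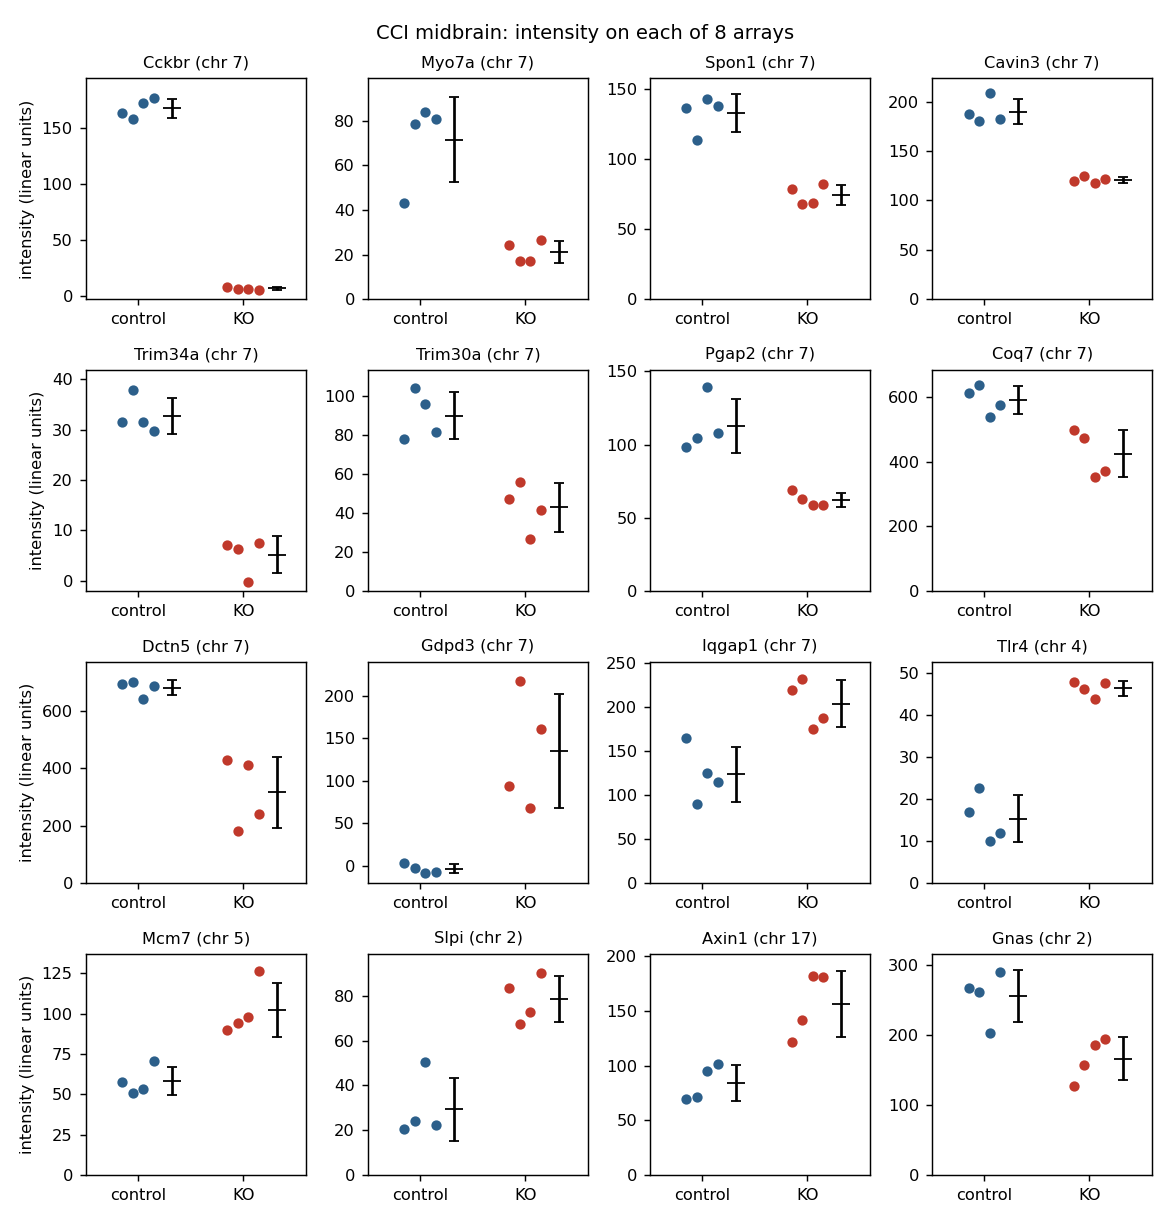
Deposited intensity in linear units (vertical) on each of the 4 control and 4 KO CCI midbrain arrays, for 16 genes on the probe set of smallest p, with the mean and SD beside the points. Cckbr falls from 168 to 7.09 units and Gdpd3 is at background on every control array, while in most other panels the groups separate with smaller gaps.

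A group of tripartite-motif genes, the measured genes 6 to 8 places before Cckbr, was lower too. Trim proteins are ubiquitin ligases, many of them induced by interferon. Trim34a read 7.14, 6.33, -0.21 and 7.38 on KO arrays and 31.5, 37.9, 31.6 and 29.7 on control arrays, near background in KO mice and well separated (-1.28, SE 0.23, adjusted p = 0.254). Trim34a passed in the fit to the 8 CCI midbrain arrays alone (0.0443) and without KO sham 2 (0.00212). The latter was the 1 of 16 fits leaving out a midbrain array in which it passed, with adjusted p up to 0.809 in the others. Trim30a read 47.6, 56.2, 26.6 and 41.9 on KO arrays and 78.2, 104.1, 95.9 and 81.7 on control arrays, without overlap (-0.92, SE 0.23, adjusted p = 0.837). Trim12a was at background on all KO arrays, at most 4.21 units, and read from 8.82 to 15.9 on control arrays (-0.73, adjusted p = 0.920). A second probe set of each differed from the first: 0.17 for Trim34a, -0.35 for Trim30a and 0.08 for Trim12a. These genes have near-identical copies beside them, so which copy a probe set reads is uncertain.

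Promoters of Trim34a and Trim30a are shown because the pair read lower together and share a motif. Capitals mark the interferon response element, searched on both strands, with 1 match in each. Of all 32851 promoters 89 hold it (0.271%), and of 17 listed interferon response genes with a promoter 5 do. The pair was chosen with the motif known, so its presence in both is no result of these data. No motif count is given for Trim12a. Trim34a lies at chr7:104244207-104244506, plus strand, and Trim30a at chr7:104465144-104465443, minus strand (RefSeq, GRCm38.p6).
Trim34a: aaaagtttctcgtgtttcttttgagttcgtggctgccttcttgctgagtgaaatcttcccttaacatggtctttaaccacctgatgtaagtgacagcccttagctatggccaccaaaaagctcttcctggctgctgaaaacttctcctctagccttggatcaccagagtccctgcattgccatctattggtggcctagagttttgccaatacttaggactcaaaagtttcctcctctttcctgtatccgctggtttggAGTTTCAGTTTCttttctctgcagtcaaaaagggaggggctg
Trim30a: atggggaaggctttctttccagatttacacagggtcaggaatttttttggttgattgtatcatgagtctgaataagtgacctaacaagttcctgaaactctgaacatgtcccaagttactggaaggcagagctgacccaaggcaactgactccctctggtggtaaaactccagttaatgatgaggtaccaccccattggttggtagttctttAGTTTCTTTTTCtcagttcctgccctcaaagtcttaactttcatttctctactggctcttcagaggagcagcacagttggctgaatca
In the list of interferon response genes, 0 of 18 measured genes passed, none stood at an unadjusted p under 0.05, and the median log2 difference was 0.03 against -0.01 over all genes. Of these 18 genes, 12 lay above 0 and 6 below. Mx1, an antiviral GTPase, read 39.9 ± 5.65 in KO and 30.4 ± 6.01 in control midbrain (SD, n = 4), and Irf7, the master regulator of type I interferon, 65.9 ± 13.2 and 51.7 ± 7.11. Irf9, a subunit of the factor ISGF3 that interferon activates, read 53.9 ± 5.98 and 59.5 ± 12.1 (-0.17).

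Among genes higher in KO midbrain the largest difference on this scale was in Gdpd3, a lysophospholipase D of the glycerophosphodiester phosphodiesterase family. KO arrays 1 to 4 read 93.9, 217, 67.9 and 161 units, and control arrays read 3.51, -2.34, -8.27 and -7.72. The gene was at background on every control array and clearly present, at unequal levels, on every KO array. The log2 difference was 3.04 (SE 0.68, adjusted p = 0.665), which did not pass. Its size depends on the pseudocount, since the control arrays are at background: it was 6.40 with a pseudocount of 1 and 1.54 with 64. Gdpd3 passed in the fit to the 8 CCI midbrain arrays alone (0.0443) and without KO sham 3 (0.0261). The latter was the 1 of 16 fits leaving out a midbrain array in which Gdpd3 passed. In sham midbrain the pattern was less even, with KO arrays from -1.31 to 166 and control arrays from -1.37 to 57.8.

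Tlr4, the receptor for bacterial lipopolysaccharide, read 47.7, 46.1, 43.7 and 47.4 on KO arrays and 16.8, 22.6, 9.92 and 11.98 on control arrays. The KO values lay within a few units of each other and above all controls (log2 difference 0.93, SE 0.21, adjusted p = 0.665). Tlr4 passed in 1 of 16 fits that left out a midbrain array in turn, that without KO sham 4 (adjusted p = 0.0147). The second probe set of Tlr4 was near background in both groups, at 10.9 ± 3.74 and 11.0 ± 4.09 (SD, n = 4, -0.08). Tlr4 lies on chromosome 4.

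Iqgap1, a scaffold of the actin cytoskeleton, read 220.2, 232, 176 and 188 on KO arrays and 165, 89.6, 126 and 115 on control arrays, without overlap (0.67, SE 0.16, adjusted p = 0.680). Its 4 other probe sets read 0.23, 0.12, 0.11 and -0.21. Folh1, a peptidase that frees glutamate from N-acetylaspartylglutamate, read 173, 147, 106 and 120 on KO arrays and 108, 72.4, 62.6 and 76.1 on control arrays (0.62, SE 0.17, adjusted p = 0.920). Here KO array 3 lay just below control array 1.

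Away from chromosome 7, Axin1, a scaffold on which beta-catenin is marked for breakdown, read 121, 141, 182 and 181 on KO arrays and 69.3, 71.3, 95.2 and 101 on control arrays (0.76, SE 0.24, adjusted p = 0.966). Both groups were higher on arrays 3 and 4, and they did not overlap. The other probe set of Axin1 read 0.09. Slpi, a secreted inhibitor of leukocyte proteases, read 83.6, 67.2, 72.8 and 90.2 on KO arrays and 20.3, 24.1, 50.3 and 22.3 on control arrays (1.03, SE 0.29, adjusted p = 0.920).

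Mcm7, a subunit of the replication helicase, had a mean of 102 ± 16.6 in KO and 58.1 ± 8.85 in control midbrain (SD, n = 4) on 1 probe set (0.61, SE 0.15, adjusted p = 0.837), while its 3 others read -0.12, -0.15 and -0.25. Cenpn, a centromere protein, read 66.6 ± 3.77 and 43.6 ± 7.27 (0.40, adjusted p = 0.920), with -0.23 on its other probe set. Dpysl3, a collapsin response mediator of growing axons, read 265 ± 49.2 and 190 ± 4.37 (0.44, adjusted p = 0.920), with -0.08 and -0.01 on its other probe sets. For Mcm7, Cenpn and Dpysl3 the difference was in 1 probe set, and the others had the opposite sign. Iglv1, an immunoglobulin light chain variable gene, read 160 ± 25.7 and 102 ± 12.04 (0.55, adjusted p = 0.920). Gnas, the stimulatory G protein subunit, read 166 ± 30.8 and 256 ± 37.1 on 1 probe set (-0.57, adjusted p = 0.837), while its most abundant probe set read 5332 ± 180 and 5290 ± 115 (0.01).

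The genes of smallest p were collected on the chromosome of Cckbr. Of the 10 probe sets of smallest p, 7 were on chromosome 7, all lower in KO mice. Of the first 25, 24 had a known chromosome and 13 were on chromosome 7. Of the first 50 it was 19 of 43 with a known chromosome, and of the first 100 it was 26 of 86. Chromosome 7 holds 7.06% of all probe sets with a known chromosome. Chromosome 7 had the highest share of genes at an unadjusted p under 0.05, 7.73% of 957 genes, against a range of 3.15% to 6.77% on the other 19 chromosomes. These are counts without a test, and genes on a chromosome are not independent. The strain of KO and control mice along this chromosome is not stated in the sources used here, and its part in these counts was not tested.

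Around Cckbr, counted with 1 probe set per gene, the share was uneven. Within 25 measured genes on each side, 6 of 50 genes stood at an unadjusted p under 0.05, all lower in KO mice (12%). Within 50 on each side there were 8 of 100 (8%) and within 100 there were 26 of 200 (13%), of which 17 were lower, against 4.82% of genes on other chromosomes. The genes at places 51 to 100 had the highest share, 18 of 100, and beyond 200 places it was 6.28%. Myo7a lies 70 places before Cckbr, Spon1 51, Coq7 62 and Dctn5 93 places after it. Iqgap1 lies 122 places before and Gdpd3 127 places after, outside this window.

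**Figure D3:**
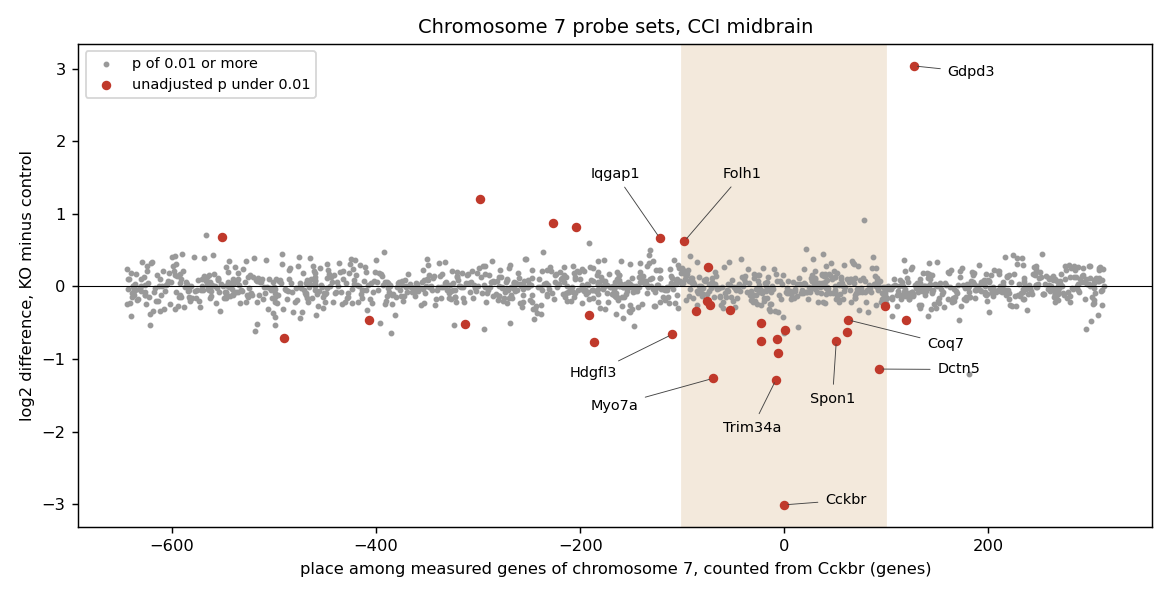
Log2 difference of chromosome 7 probe sets between KO and control CCI midbrain (vertical) against the place of their gene, counted in measured genes from Cckbr (horizontal), with unadjusted p under 0.01 in red. The shaded band holds the 100 genes on each side of Cckbr; within it lie Cckbr at -3.01 and Myo7a at -1.27, and Gdpd3 at 3.04 lies outside it.

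In the rest of the cholecystokinin system no gene passed. Of 7 genes measured Cckbr alone passed, and the list's median was -0.01. Cck, the ligand, read 991, 666, 756 and 808 units on KO arrays and 681, 601, 783 and 689 on control arrays. The groups overlapped, KO array 1 being the highest of all. The log2 difference of Cck was 0.22 (SE 0.12, adjusted p = 0.966; 95% interval on this scale from -0.03 to 0.47). Cckar, the receptor that predominates in the gut, was dim, at 25.8 ± 5.46 in KO and 31.5 ± 4.17 in control midbrain (SD, n = 4, -0.28, adjusted p = 0.966). Gast, the gastrin precursor, was at background in both groups (8.16 ± 5.21 and 8.25 ± 8.09).

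Enzymes that process the cholecystokinin precursor had close means. Cpe, carboxypeptidase E, read 5151 ± 257 in KO and 5094 ± 68.8 in control midbrain (0.01), Pam, which amidates peptides, 687 ± 55.5 and 685 ± 142 (0.03), and Pcsk1, a prohormone convertase, 83.2 ± 6.94 and 80.9 ± 13.97 (-0.01). Downstream of the receptor, 0 of 11 signalling genes passed and 9 of 11 lay above 0, with a median of 0.07. Rgs4, which shortens Gq signalling, read 964 ± 151 in KO and 807 ± 81.6 in control midbrain (0.25, adjusted p = 0.966), and was the 1 gene of this list at an unadjusted p under 0.05. Plcb1, a phospholipase C activated by Gq, read 67.7 ± 17.2 and 44.3 ± 9.51 (0.38, adjusted p = 0.966), and Plcb3 91.7 ± 4.32 and 74.1 ± 15.2 (0.22).

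Gene lists for the functions studied in pain were then described one by one, with 1 probe set per gene, that of highest level. Over all 12393 genes 626 stood at an unadjusted p under 0.05 (5.05%), and 2 passed (0.0161%). Of 29 lists, 27 held no gene that passed. Opioid genes had a median of 0.03 over 8 genes: Penk, the enkephalin precursor, read 456 ± 43.3 in KO and 505 ± 50.2 in control midbrain (-0.13), Pomc, the precursor of beta-endorphin, 73.2 ± 10.4 and 60.4 ± 14.9 (0.17), and Pnoc, the nociceptin precursor, 160 ± 5.69 and 169 ± 12.6 (-0.07). The adjusted p was 0.967 for Penk and Pomc and 0.977 for Pnoc.

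Of 18 other neuropeptide genes, 14 lay below 0 and 2 stood at an unadjusted p under 0.05. Cartpt, the CART peptide precursor, read 577, 774, 857 and 646 on KO arrays and 812, 796, 1088 and 963 on control arrays (-0.36, SE 0.13, adjusted p = 0.966). The control arrays were the higher group, with KO array 3 among them. Vip, vasoactive intestinal peptide, read 73.01 ± 10.8 and 97.7 ± 13.6 (-0.39, adjusted p = 0.966). Tacr1, the substance P receptor, read 109 ± 18.3 and 86.3 ± 15.4 (0.25).

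Dopamine neuron genes centred on 0, with a median of -0.003 over 14 genes and none at an unadjusted p under 0.05. Th read 329 ± 16.7 in KO and 333 ± 21.3 in control midbrain (SD, n = 4), and Slc6a3 561 ± 70.2 and 565 ± 26.9, values given because these genes define dopamine neurons. Nr4a2, a transcription factor of dopamine neurons, read 134, 159, 187 and 175 on KO arrays and 129, 103, 109 and 138 on control arrays (0.39, SE 0.19, adjusted p = 0.966), with an overlap at KO array 1. Of the serotonin and noradrenaline genes Htr1a, the serotonin 1A autoreceptor, read 230.1 ± 35.01 and 177 ± 12.2 (0.34, adjusted p = 0.966), and Slc6a4, the serotonin transporter, 151 ± 11.6 and 171 ± 19.7 (-0.16).

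Transmitter receptors and channels showed no gene past the threshold. GABA and glycine genes had a median of -0.02 over 15 genes, glutamate genes -0.01 over 13 and ion channels studied in pain -0.04 over 16. Grin2b, an NMDA receptor subunit, read 60.3 ± 13.1 in KO and 40.1 ± 8.70 in control midbrain (0.35), Gabrg1, a GABA-A receptor subunit, 346 ± 18.8 and 380 ± 17.7 (-0.11), and Hcn2, a pacemaker channel, 676 ± 89.4 and 791 ± 113 (-0.21). Each of these had an adjusted p of 0.966.

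Toll-like receptor signalling, 22 genes, had 1 gene at an unadjusted p under 0.05, Tlr4, and a median of -0.07, below that of all genes. Cd14, the co-receptor of Tlr4, read 73.8 ± 9.55 in KO and 48.7 ± 14.5 in control midbrain (SD, n = 4, 0.42, adjusted p = 0.966), and Il6 was near background in both (11.1 ± 4.82 and 2.20 ± 6.19). This list was chosen with Tlr4 already known to differ. Circadian clock genes had 3 of 17 at an unadjusted p under 0.05, all lower in KO mice, with a median of -0.07. Dbp, a clock output gene on chromosome 7, read 523, 663, 657 and 536 on KO arrays and 661, 707, 855 and 918 on control arrays (-0.38, SE 0.15, adjusted p = 0.966). The deposited values of KO array 2 and control array 1 were nearly equal. Per3 read 64.5 ± 5.72 and 71.3 ± 3.39 (-0.17) and Bhlhe41 was near background (8.04 ± 2.64 and 15.3 ± 6.26). The sources used here do not give the time of day of dissection.

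No gene of activity or stress passed either. Immediate early genes had a median of 0.03 over 24 genes and nerve injury and regeneration genes 0.04 over 18, with 0 at an unadjusted p under 0.05 in both. Egr4, an early growth response factor, read 43.7 ± 9.08 in KO and 30.4 ± 12.6 in control midbrain (0.31). Glucocorticoid response genes had a median of -0.001 over 14, with the metallothionein Mt2 at 1340 ± 82.6 and 1541 ± 171 (-0.20). Synaptic kinases and scaffolds had 0.01 over 17. Of 27 heat shock and unfolded protein genes 1 stood at an unadjusted p under 0.05: Hspb1, a small heat shock protein, read 274, 197, 271 and 292 on KO arrays and 203, 174, 217 and 198 on control arrays (0.36, SE 0.15, adjusted p = 0.966).

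In the list of 22 myosins and dynactin subunits, chosen for Myo7a and Dctn5, the other 20 genes lay between -0.19 and 0.25. Myo15, an unconventional myosin of hair cells, read 64.7, 89.6, 99.6 and 82.4 on KO arrays and 65.4, 67.0, 63.6 and 65.7 on control arrays (0.24, SE 0.09, adjusted p = 0.966). The KO arrays other than array 1 were above all controls. Of 25 genes of the beta-catenin destruction complex and Wnt signalling, Axin1 was the 1 at an unadjusted p under 0.05, and the median was 0.01. Tcf7l2, a Wnt-responsive transcription factor, read 511 ± 108 in KO and 718 ± 183 in control midbrain (-0.46, adjusted p = 0.966).

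**Figure D4:**
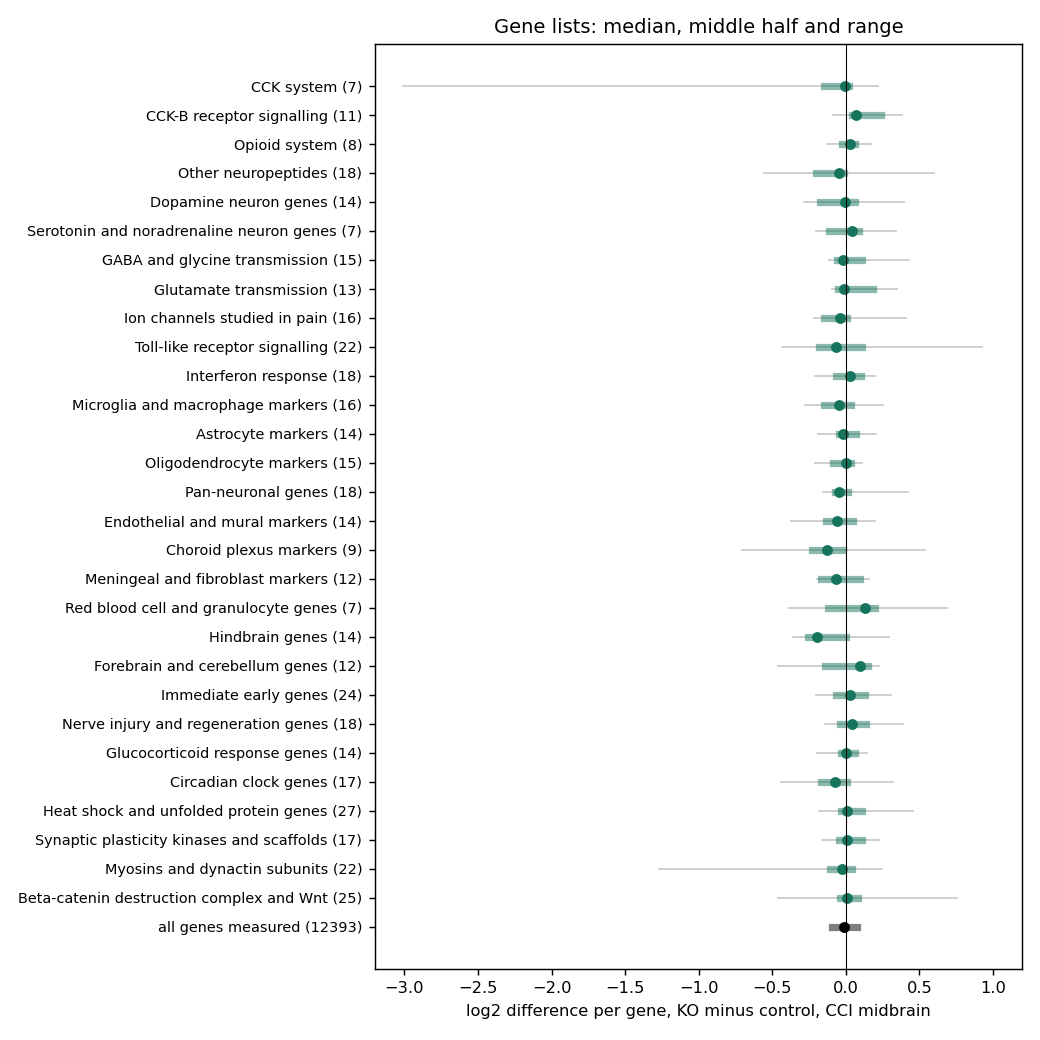
Log2 difference per gene between KO and control CCI midbrain (horizontal) for 29 gene lists, with the number of genes measured in brackets. Points are medians, thick bars the middle 50% and thin lines the range, with all 12393 genes in black at the foot without a range; medians lie between -0.20 and 0.13, and the longest line is that of the CCK system, which holds Cckbr.

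No marker of a cell type passed. None of 16 microglia, 14 astrocyte, 15 oligodendrocyte, 18 pan-neuronal, 14 endothelial and mural, 9 choroid plexus, 12 meningeal and fibroblast or 7 blood cell genes passed. The summed level of the microglia markers ran from 4210 to 4628 on KO arrays and from 4175 to 4525 on control arrays, that of oligodendrocyte markers from 27898 to 28810 and from 26910 to 28918, and that of pan-neuronal genes from 32114 to 33934 and from 32869 to 34345. Fcer1g, an Fc receptor chain of microglia, read 97.1 ± 2.39 in KO and 114 ± 5.30 in control midbrain (-0.22, adjusted p = 0.966), and Mog, a myelin protein, 476 ± 33.8 and 555 ± 29.4 (-0.21). The signs were mixed, with 5 microglia genes above 0 and 11 below, and 8 oligodendrocyte genes above 0 and 7 below. P2ry12, a purine receptor of microglia, read 244 ± 19.6 and 203 ± 21.6 (0.25, adjusted p = 0.967), and Olig1, a transcription factor of oligodendrocytes, 2759 ± 141 and 2575 ± 75.1 (0.11).

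Choroid plexus can be caught with midbrain tissue. Its marker Ttr varied most, at 268, 354, 639 and 1073 on KO arrays and 1151, 874, 985 and 500 on control arrays (-0.71, SE 0.63, adjusted p = 0.971). The groups overlapped widely, and the summed level of the 9 markers ran from 565 to 1305 on KO and from 740 to 1453 on control arrays. F5, Aqp1 and Kcne2 had means under 16 units. Any part of choroid plexus tissue in other differences was not tested. Of the blood cell genes, S100a9 read 35.5 ± 3.70 and 48.3 ± 10.5 (-0.39) and Lcn2 52.0 ± 32.9 and 21.3 ± 7.67 (0.68), with KO array 1 at 101. Hindbrain genes had the lowest list median, -0.20 over 14 genes, at low levels: their summed level ran from 350 to 417 on KO and from 363 to 400.0 on control arrays. Hoxb5, one of them, read at most 15.5 units on the 8 arrays.

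Sham midbrain, which shares no array with CCI midbrain, gave the same comparison without nerve injury. Cckbr differed by -2.81 there (adjusted p = 3.873e-07), Myo7a by -1.32 (0.0297) and Iqgap1 by 1.1 (0.0347), and these were the 3 probe sets that passed (0.0133%), while 1917 (8.47%) stood at an unadjusted p under 0.05. Dctn5 read -1.27, Trim34a -1.09, Pgap2 -0.63, Tlr4 0.90, Axin1 1.03 and Mcm7 0.62 in sham midbrain, none of which passed. Gnas (-0.01) and Iglv1 (0.03) read near 0 there, against -0.57 and 0.55 in CCI midbrain. Without KO sham arrays 2 and 4, a setting chosen after seeing the data, 11 probe sets passed in sham midbrain, 6 higher and 5 lower. Cckbr (-2.61, adjusted p = 3.471e-07) and Myo7a (-1.58, 0.0103) were among them, as were Trim34a (-1.42, 0.0103) and Tlr4 (1.15, 0.0109), while Iqgap1 was not (0.95, 0.106). The rest were Rsad2, Gsc, Dll4, Meox2, Slc26a8, Cwc22 and a probe set without a single gene symbol. None of the rest passed in CCI midbrain.

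Of the 31 probe sets on chromosome 7 other than Cckbr at an unadjusted p of at most 0.01 in CCI midbrain, 30 had the same sign in sham midbrain (96.8%) and 20 also stood at an unadjusted p under 0.05 there (64.5%). Of the 153 such probe sets on other chromosomes 69.3% had the same sign, and 10.5% stood at that p. Over all probe sets with a known chromosome other than Cckbr 50.1% had the same sign, and 4.37% also stood at that p. Without KO sham arrays 2 and 4 the same sign was seen for 30 of the 31 and for 78.4% of the 153, and 54.8% and 19.6% stood at that p. These shares are a description, since neighbouring genes and probe sets of a gene are not independent. The CCI and sham comparisons also share an estimate of the spread of each probe set. A small p in one therefore makes a small p in the other likelier.

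In CCI medulla, from the same animals, Cckbr alone passed (-2.76, adjusted p = 8.275e-12, 1 probe set or 0.00442%), with 508 (2.25%) at an unadjusted p under 0.05. Dctn5 read -1.21, Gdpd3 2.96, Axin1 1.13, Myo7a -0.98, Folh1 0.99, Spon1 -0.74 and Tlr4 0.63 in medulla. Slpi (0.05), Iglv1 (-0.003) and Cenpn (0.002) read near 0 there, and Dpysl3 had the other sign (-0.36). Since each animal gave both regions, the medulla is not a further set of mice.

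**Figure D5:**
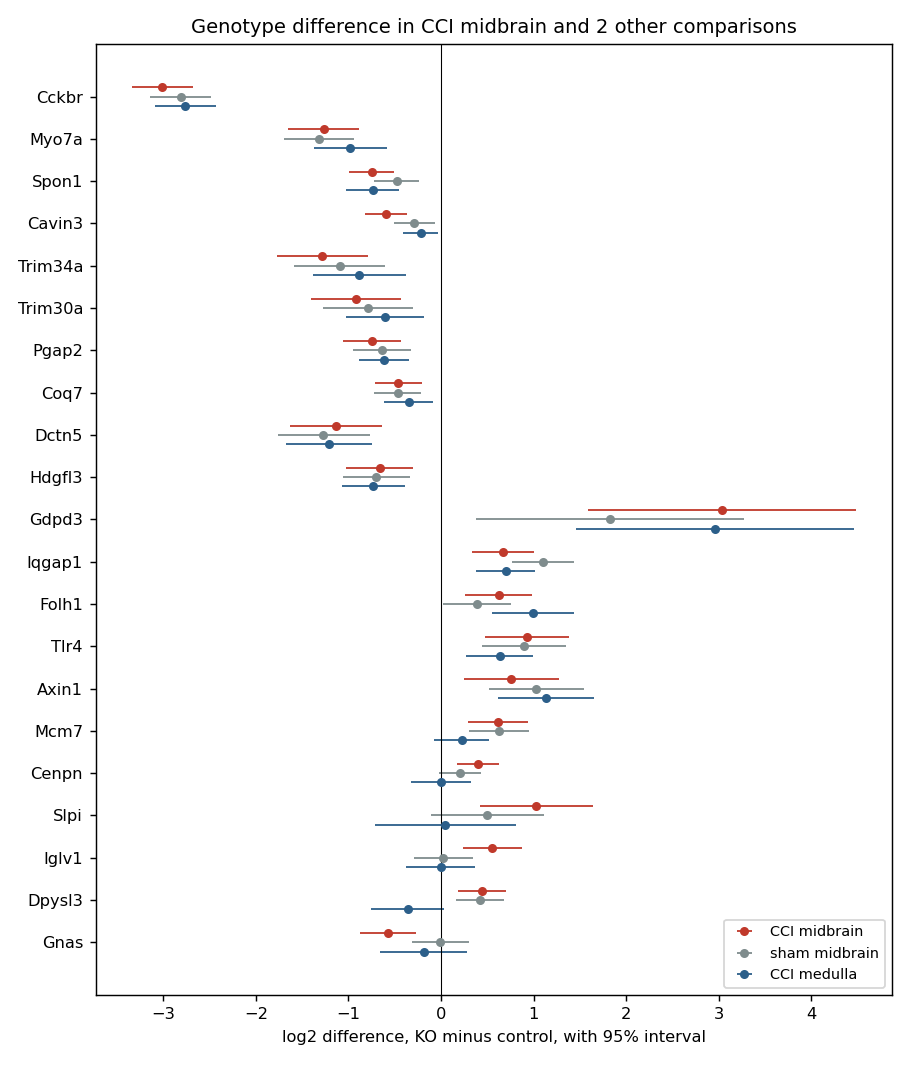
Log2 difference between KO and control arrays (horizontal) with its 95% interval from limma, for 21 genes in CCI midbrain (red), sham midbrain (grey) and CCI medulla (blue). Cckbr lies between -3.01 and -2.76 and Dctn5 between -1.27 and -1.14 in all 3, while Slpi, Iglv1 and Gnas are near 0 in at least 1 of the others.

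Whether the genotype difference depends on the operation was tested as an interaction over the 16 midbrain arrays. No probe set passed in limma (0 of 22626), and 1239 stood at an unadjusted p under 0.05 (5.48%). The interaction was -0.20 for Cckbr (SE 0.22), 0.05 for Myo7a (SE 0.25), 0.03 for Tlr4 (SE 0.30) and 1.21 for Gdpd3 (SE 0.96), with adjusted p of 0.887, 0.982, 0.992 and 0.852. Among probe sets with 1 gene symbol and a mean of at least 50 units, the smallest p belonged to Kifap3, a kinesin adaptor. Kifap3 read -0.21 in CCI and 0.27 in sham midbrain (interaction -0.48, SE 0.10, adjusted p = 0.822). On KO arrays it read 752, 778, 739 and 815 and on control arrays 898, 858, 915 and 918 in CCI midbrain, while in sham midbrain KO arrays were the higher group. Actn1, an actin crosslinker, read -0.18 and 0.24 (-0.42), and Rnf138, a ubiquitin ligase, 0.14 and -0.33 (0.47), each at an adjusted p of 0.822.

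Whether the difference depends on the region was tested over all 32 arrays. No probe set passed in limma (0 of 22626), with 779 at an unadjusted p under 0.05 (3.44%). With the animal as a random block, inferred from consecutive array numbers, 0 passed and 1347 stood at that p. St7 read 0.43 in midbrain and -0.37 in medulla (interaction 0.80), Cers4, a ceramide synthase, -0.48 and 0.16 (-0.64), and Ccdc114, an axonemal dynein docking protein of chromosome 7, 0.87 and -0.62 (1.49). The adjusted p was 1 for these 3 genes, so a difference between the regions was not shown for any.

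The precision of 4 arrays against 4 was as follows. All values are on the normalized log2 scale of the tests, which adds a pseudocount to the intensity. The median SE over probe sets was 0.137. The 95% interval lay within a 1.5-fold change in either direction for 76.8% of probe sets. It lay within a 2-fold change for 97.1%. The scale understates the change of dim genes, so these shares do not exclude larger fold changes in intensity for dim probe sets. A mean of at least 50 units was reached by 14794 of 22626 probe sets. On the same scale, observed differences passed 2-fold on 14 probe sets, 7 higher and 7 lower. Of these, 9 had a mean intensity of at least 50 units, among them Cckbr, Dctn5, Gdpd3 and Slpi. The number of arrays limits what can be called, and p-values measure the spread between mice within these groups.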

How the data were processed

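RNA from midbrain was hybridised to mouse expression arrays with 1 colour, 1 array per sample. The authors deposited linear intensities, background-subtracted so that some are below 0; the sources used here do not give the software that made them. All 32 arrays were set to at least 0, given a pseudocount of 16, taken to log2 and quantile normalized. Control probe sets (64 of 22690) were left out of the tests. Of those tested, 20380 carried 1 gene symbol, 691 several and 1555 none.

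Genotype within CCI midbrain was tested with limma 3.58.1 in R 4.3.3 on the 16 midbrain arrays, with 4 group means (12 residual degrees of freedom), so that sham arrays share in the estimate of the spread. The threshold was a Benjamini-Hochberg adjusted p under 0.05 over 22626 probe sets. The genotype by operation interaction came from the same fit and the genotype by region interaction from a fit to all 32 arrays. Figures were drawn with matplotlib 3.10.9 in Python 3.11.15.

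Named genes were all Cckbr probe sets, genes that passed, the 8 per direction of smallest p with a mean of at least 50 units, up to 3 per list, all of the CCK system, genes picked out in earlier work, 8 neighbours of Cckbr and 3 per direction for each interaction. Th, Slc6a3, Hoxa5, Hoxb4, Pitx3, F5, Aqp1 and Kcne2 are named as markers outside that rule, and P2ry12 was chosen after its values were seen. The members and lists were chosen with earlier results of these data known. A fold is given only where both means reach 16 units. Same-numbered arrays of both genotypes did not deviate together (correlations of 0.073, 0.079, -0.042 and 0.08 after removing group means), so titles were not used to pair them. Array pairs with identical values numbered 0. The alternatives were the normalization, pseudocount, filter on dim probe sets, variance model, array code, replicate block, animal as a random block and arrays left out. The sham comparison without KO sham midbrain 2 and 4 was added after seeing the data.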

Additional observations from a re-analysis of the deposited data

Results flagged for a closer look

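In 14 of 292 groups of 4 arrays (7 of KO and 7 of control arrays) 1 array stood apart from the other 3 on the normalized scale, by a gap that chance gives in about 1 in 20 groups. For 3 of the 14, Gdpd3, Trim12a and Hoxb5, the other 3 arrays were below 0 and were set to the same floor, so the floor fixed the gap and that rate does not apply. Deposited intensities are given. Myo7a was lowest on control array 1, at 43.1 against 80.6 on a neighbouring array, and Pgap2 was highest on control array 3 (139.4). Gdpd3 was highest on control array 1 (3.51) and Trim12a on KO array 1 (4.21), both values at background. Rgs4 was highest on control array 1 (928.5). Zic1, a patterning factor, was lowest on KO array 4 (1047). Fcer1g (93.6) and Rbfox3, a neuronal splicing factor (139.5), were lowest on KO array 3, and Penk on KO array 1 (391). Fosl2, an AP-1 subunit, was lowest on control array 3 (28.5). Hoxb5 (11.6) and the second probe set of Trim34a (27.9) were highest on KO array 1. Of the probe sets of Gnas, 1 was lowest on control array 3 (13) and the most abundant was highest on control array 1 (5387).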

How the results depend on the processing

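The 2 calls in CCI midbrain became 0 with a pseudocount of 1, 5 with array weights, 4 on the 8 CCI midbrain arrays alone, 1 with the array code as a block, 0 within the lower and 1 within the higher code, 5 without KO sham midbrain 2 and 4, and 1 to 4 when an array was left out. An alternative chosen after seeing the data, the 8 arrays with the code as a block, gave 1. Leaving out KO sham midbrain 2 and 4 also followed from these data, since both stood apart on the first principal component. With the title number as a replicate block 1 probe set passed, Cckbr (7.577e-06), while Myo7a did not (0.119). The titles share only a number, so this block tests no pairing. Cckbr was lost with a pseudocount of 1 (0.120) and within the lower code. The fits within a code took in its sham midbrain arrays, of which the lower code held 1 control array. The operation interaction had 1 call without KO sham midbrain 2 and 4, Gsc (-0.72, adjusted p = 0.00398 in limma), and otherwise 0. The region interaction had 0 in each fit run. Of 146 named probe sets, 27 changed sign at least once, none of them past the threshold. For genes with several named probe sets, the value is that of a probe set other than the one of smallest p. The log2 differences that changed sign were, with median centring, C8g 0.0043, Hdgfl3 -0.014, Gnas -0.022, Cpe -0.018, Pam -0.0093 and Pcsk1 0.0089; with a pseudocount of 1, Gast 0.10; and with array weights, Dpysl3 0.00047. Within the lower code they were Fosl2 -0.010, Irf7 -0.12, Pomc -0.039, Plin4 -0.12, Axin1 -0.12, Tlr4 0.11, Lrp2 0.18, Trim12a -0.074, Gnas -0.023 and Dpysl3 0.13. Within the higher code they were Plcb1 -0.044, Nefh 0.065, Hoxa2 0.085, Camk2a -0.069, Ttr 0.27, Iglv1 -0.020, Trim34a -0.055, Pnoc 0.037, Gnas 0.18 and -0.32 on separate probe sets, Pam -0.042 and Pcsk1 0.11. With an array left out, the ranges that crossed 0 were Iqgap1 -0.025 to 0.25, Trim12a -0.13 to 0.29, Cpe -0.015 to 0.035, Gast -0.20 to 0.19, Gnas -0.032 to 0.20 and -0.019 to 0.029 on separate probe sets, Pam -0.081 to 0.14, Dpysl3 -0.076 to 0.069, Pcsk1 -0.068 to 0.083, Axin1 -0.023 to 0.24, Lrp2 -0.23 to 0.16, C8g -0.075 to 0.00033 and Tlr4 -0.17 to 0.017. The cause of these changes was not tested. With 4 arrays a group and dim probe sets near background, small differences could not be called.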
